A study of Mus musculus with 9 samples.

Results

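The liver mesothelial cells that were neither cycling nor positive for Enpp2 were described gene by gene in single-cell RNA sequencing of mouse liver. They were chosen from unique molecular identifier (UMI) counts, in which each tagged transcript counts once. A cell with at least 200 genes was taken when its UMIs of Msln, Upk3b, Upk1b, Lrrn4, Wt1, Gpm6a, Muc16, Nkain4, Rspo1 and Bnc1 summed to at least 5. Its UMIs of Enpp2, Cxcl13 and Col6a5 had to sum to at most 1, and those of Mki67, Top2a, Cenpe, Cenpf, Kif11 and Nusap1 to less than 5. This gave 294 cells, which are 6.37% (95% exact binomial interval 5.68 to 7.11) of the 4617 cells with at least 200 genes among 4694 barcodes. Below they are called the mesothelial cells. The levels of the 19 gate genes follow from this choice and are given as a description only.

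All these cells came from C57BL/6J mice of 6 to 8 weeks labelled CluKO, a knockout of the clusterin gene, which received recombinant human clusterin during injections of carbon tetrachloride (CCl4), a liver toxin. The sources used here do not give the length of their CCl4 treatment. Their 6 samples share 1 matrix whose barcodes carry no sample name and occur once each, so the spread between animals cannot be measured, and the design text speaks of 3 such mice. Wild-type C57BL/6J mice given CCl4 for 0, 2 or 4 weeks gave 3 further samples, whose matrix rows are not paired with gene names here, so these cells are not set against wild type. Livers were minced and digested, red cells were lysed and cells were captured on microwell chips, per the labels. The targeted gene Clu was counted in 98.6% of these cells at 1695 CPM (UMIs scaled to 1e6), so it is referred to as the matrix labelled CluKO. The deleted part of the gene is not known here, and reads that lie outside it check nothing. No test and no p-value is given, and every interval covers counting error only.

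The mesothelium is a sheet of flat cells of mesodermal origin that covers the liver capsule and the walls of the body cavities. It carries epithelial keratins together with the mesenchymal filament vimentin, and it secretes a lubricating fluid and matrix proteins. In mouse models of liver injury, mesothelial cells have been traced to fibroblast-like cells beneath the capsule.

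Promoters of 4 genes on which the description turns are shown, 250 bases before to 50 after the annotated start, from RefSeq on GRCm38.p6. The gene spans given below come from GENCODE, whose starts of Slpi, Saa3 and Crip1 differ from these. Slpi and Myl7 are mesothelial markers that the gate did not use, Saa3 had the most UMIs of the genes ranked below, and Crip1 led a set of genes that varied together. Capitals mark GGAATG, the core bound by TEAD factors, or AGATAA, a core bound by GATA factors, on either strand. TATAAA, the TATA box core, was searched too.
Slpi promoter, chr2:164356458-164356757, minus strand: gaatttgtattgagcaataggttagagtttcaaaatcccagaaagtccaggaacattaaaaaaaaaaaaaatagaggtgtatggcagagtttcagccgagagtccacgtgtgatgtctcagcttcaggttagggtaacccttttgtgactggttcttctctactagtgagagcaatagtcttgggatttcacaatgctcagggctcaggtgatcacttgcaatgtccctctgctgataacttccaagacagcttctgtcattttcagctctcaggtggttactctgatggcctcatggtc
Myl7 promoter, chr11:5898733-5899032, minus strand: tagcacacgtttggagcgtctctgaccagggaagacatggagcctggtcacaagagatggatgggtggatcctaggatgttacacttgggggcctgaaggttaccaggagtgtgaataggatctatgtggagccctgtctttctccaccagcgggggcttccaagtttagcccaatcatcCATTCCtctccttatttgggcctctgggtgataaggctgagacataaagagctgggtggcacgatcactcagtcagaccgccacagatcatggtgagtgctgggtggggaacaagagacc
Saa3 promoter, chr7:46715627-46715926, minus strand: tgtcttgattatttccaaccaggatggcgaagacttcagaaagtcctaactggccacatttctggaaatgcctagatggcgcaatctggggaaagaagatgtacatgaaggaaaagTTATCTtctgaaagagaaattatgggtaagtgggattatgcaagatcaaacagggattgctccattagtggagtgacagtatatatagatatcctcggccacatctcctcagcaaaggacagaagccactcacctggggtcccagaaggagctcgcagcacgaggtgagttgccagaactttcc
Crip1 promoter, chr12:113151762-113152061, plus strand: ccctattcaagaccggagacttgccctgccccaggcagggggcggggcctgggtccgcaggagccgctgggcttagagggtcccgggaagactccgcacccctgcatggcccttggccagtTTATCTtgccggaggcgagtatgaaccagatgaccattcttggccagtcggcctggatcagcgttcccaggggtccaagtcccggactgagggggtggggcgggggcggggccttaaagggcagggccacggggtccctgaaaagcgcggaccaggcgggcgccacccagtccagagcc
The Myl7 window holds GGAATG with its first base 70 bases before the start. AGATAA lies 134 bases before the start in Saa3 and 129 before it in Crip1, and the Slpi window holds none of the 3 motifs. No marked motif overlaps another. Of 32851 promoters of the same length, 14.7% hold GGAATG, 11.2% hold AGATAA and 13.6% hold TATAAA. These matches are descriptions of the letters, and no binding was measured.

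The label was checked against markers. Of 16 mesothelial markers, 10 chose the cells, and the 6 others were Slpi, Myl7, Angptl7, Krt8, Krt18 and Krt19. Slpi stood at 22949 CPM in the mesothelial cells and 358 in all other cells, Myl7 at 684 and 1.23, and Angptl7 at 535 and 2.14. Krt8 stood at 801 CPM in the mesothelial cells and 208 in all other cells, Krt18 at 602 and 167, and Krt19 at 1625 and 4.19. All 6 were therefore higher in the mesothelial cells. The label itself names Slpi, Myl7 and Angptl7, so their levels do not check it and only the keratins stand apart from it. The 16 together, most of it Slpi, had a summed level of 35434 CPM, against 12340.1 in Enpp2-positive cells with mesothelial markers, 22478 in cycling cells with mesothelial markers and 759 in all other cells. In single cells it ran from 756 to 97002 CPM with a median of 28986. Epcam and Cldn7 of the bile duct list, Reln and Rgs5 of the stellate list, and Myh11, Actg2 and Cnn1 of the smooth muscle list were at 0. The 8 bile duct markers, of which 4 had UMIs, summed to 529 CPM in the mesothelial cells, 209 in Enpp2-positive cells and 1875 in all other cells. The 6 smooth muscle markers, of which 3 had UMIs, summed to 165 CPM in the mesothelial cells, 158 in Enpp2-positive cells and 13.6 in all other cells. All 10 fibroblast markers had UMIs, at 1820.2 CPM in the mesothelial cells, 2283 in Enpp2-positive cells and 57.6 in all other cells. Lrat, the enzyme by which stellate cells store vitamin A, gave 2 UMIs, and the stellate receptor Pdgfrb gave 5. Dcn, decorin, made up 6259 of the 6884 CPM of the 9 stellate markers. Haemoglobin RNA was counted in every mesothelial cell, with Hbb-bs at 5076 CPM in the mesothelial cells and 4021 CPM in T cells and neutrophils. In 9 of the 294 cells, markers of another type reached the share used for that type, with 2 cells for hepatocytes, 2 for macrophages, 1 for neutrophils and 4 for erythroid cells. Results that rest on them are given without them as well.

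Depth differed between the groups. The median was 7262 UMIs and 2658.5 genes per mesothelial cell, against 5591.5 UMIs in the 122 Enpp2-positive cells, 10342 in the 108 cycling cells and 4605 in the 4093 other cells. The gates count raw UMIs, so depth moves with them, and every ratio was also computed with each cell thinned to 2000 UMIs. Mitochondrial transcripts made up a median of 2.30% per mesothelial cell and at most 9.49%. A background of 257 T cells and neutrophils, named by marker share (median 3656 UMIs), stands beside shares of cells.

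**Figure D1:**
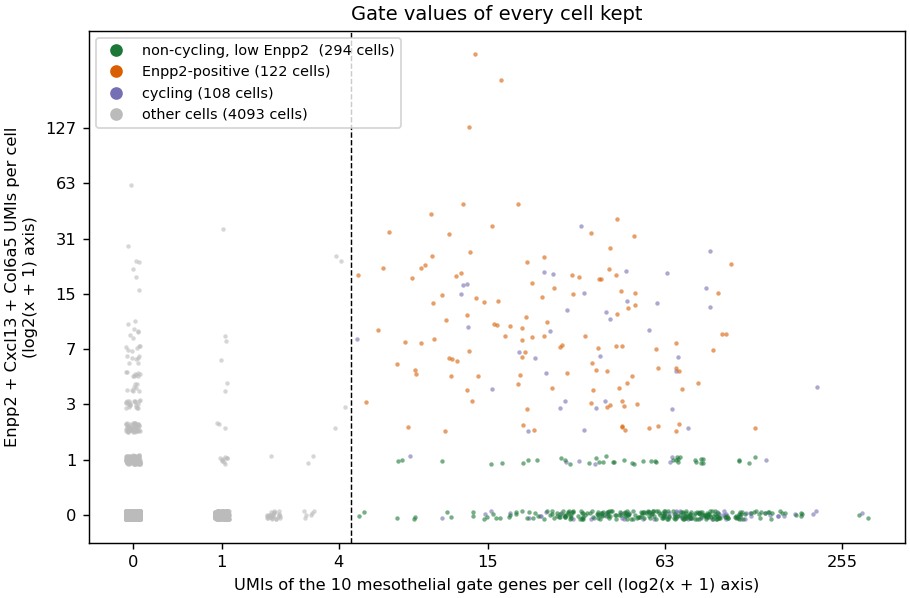
Each point is 1 of the 4617 cells, with the UMIs of the 10 mesothelial gate genes on the x axis and of Enpp2, Cxcl13 and Col6a5 on the y axis, both as log2(x + 1) with small jitter, and the dashed line at the marker gate. The 294 mesothelial cells lie in the 2 lowest rows right of the line, and few cells of any kind lie next to it.

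Few cells lay near the marker gate. A marker sum of 5 to 9 UMIs was found in 7 of the mesothelial cells, while 287 had 10 or more, with a median of 58 and a maximum of 313 over all of them, and 7 otherwise eligible cells lay just outside at 3 to 4. The 7 cells just inside held 11861 CPM of Slpi, against 1596 CPM in the 7 just outside. The Enpp2 gate ran through a gradient, with 41 mesothelial cells just inside it. Non-cycling cells with an Enpp2 sum of 0, 1, 2 to 3 and at least 4 UMIs numbered 253, 41, 21 and 101, and the first 2 classes are the mesothelial cells. Slpi, a secreted protease inhibitor, stood at 23656, 18426, 12707 and 3664 CPM over these 4 classes. Myl7, a myosin light chain best known from the heart atrium, stood at 714, 491, 133 and 17.3 CPM. Both were lower in each class than in the one before it. Lgals1, galectin-1, ran the other way at 1353, 3479, 4418 and 7924 CPM. Col1a1, a chain of type I collagen, stood at 834, 1560.0, 1975 and 3283 CPM. Cells with 1 UMI therefore lay between those with 0 and those with 2 or more for these 4 genes. Igfbp3, a binding protein of insulin-like growth factors, stood at 58.1, 71.1, 219 and 493 CPM, and the keratin Krt19 at 1679, 1285, 1093 and 1327 CPM, with its lowest value at 2 to 3 UMIs. At the cycling gate, Stmn1, a tubulin-binding protein of dividing cells, stood at 104 CPM in 281 cells with 0 to 2 cycling UMIs and 451 CPM in 13 with 3 to 4. It stood at 644 CPM in the 6 cells just outside.

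**Figure D2:**
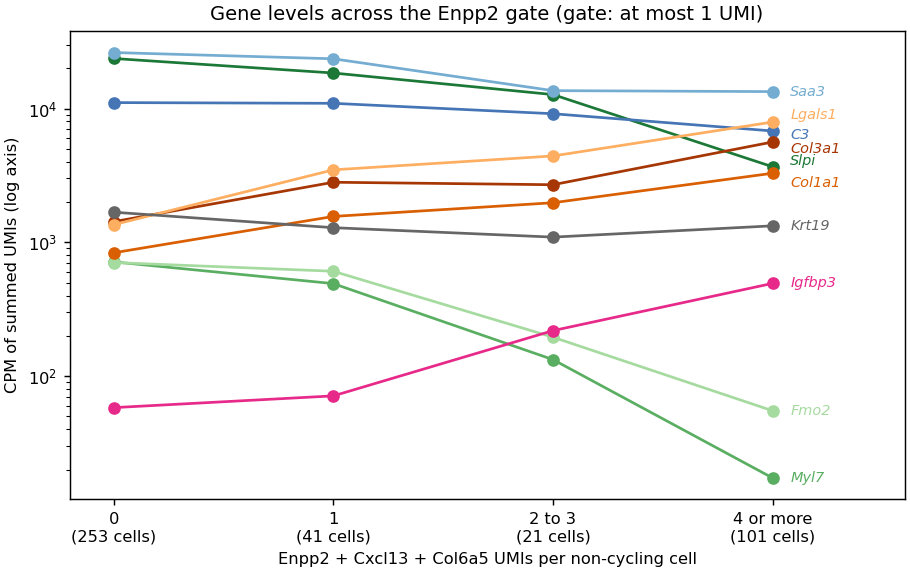
CPM of summed UMIs (log axis) of 10 genes across 4 classes of non-cycling cells by their UMIs of Enpp2, Cxcl13 and Col6a5, of which the first 2 are the mesothelial cells. Slpi, Fmo2 and Myl7 slope down and Lgals1, Col1a1 and Igfbp3 slope up across the gate.

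The genes of the gate differed in how many cells they marked. Upk3b, an uroplakin-family membrane protein (ENSMUSG00000042985, GRCm38 chromosome 5, 136038496 to 136046487, plus strand), had UMIs in 97.6% of the mesothelial cells at 1901 CPM, and Msln, mesothelin (ENSMUSG00000063011, GRCm38 chromosome 17, 25748613 to 25754378, minus strand), in 95.2% at 1601 CPM. Gpm6a, a membrane glycoprotein, was seen in 97.6%, Nkain4 in 95.2% and the uroplakin Upk1b in 93.9%. Lrrn4 was seen in 88.8%, Rspo1, a Wnt-enhancing secreted protein, in 79.3%, Muc16, the CA125 mucin, in 70.1% and the transcription factor Bnc1 in 52.4%. Wt1, a transcription factor that marks mesothelium (ENSMUSG00000016458, GRCm38 chromosome 2, 105126529 to 105173616, plus strand), was seen in 79.3% at 287 CPM. At 2000 UMIs per cell the share was 88.4% for Upk3b and 38.8% for Wt1, against 0% and 0.389% of the background cells. Between the groups, Wt1 stood at 287 CPM in the mesothelial cells and 380.5 CPM in Enpp2-positive cells.

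Of the 3 label markers outside the gate, Slpi (ENSMUSG00000017002, GRCm38 chromosome 2, 164354070 to 164389095, minus strand) had UMIs in 96.3% of the mesothelial cells at 22949 CPM. This was the second highest level of the genes ranked. The ranking left out ribosomal, mitochondrial, immunoglobulin, haemoglobin, Gm- and Rik-named genes, Malat1, Neat1, Xist and gate genes. Myl7 (ENSMUSG00000020469, GRCm38 chromosome 11, 5896637 to 5898782, minus strand) was seen in 62.6% at 684 CPM, and Angptl7, a secreted angiopoietin-like protein (ENSMUSG00000028989, GRCm38 chromosome 4, 148495183 to 148500460, minus strand), in 54.8% at 535 CPM. At 2000 UMIs per cell the shares were 95.2%, 45.6% and 35.0%, against 57.2%, 0.778% and 0% of the background cells, so only for Slpi is a single UMI common in cells of another kind. Their distribution over cells differed between the groups. Myl7 was found in 184 of 294 mesothelial cells and 9 of 122 Enpp2-positive cells. Angptl7 was found in 161 mesothelial cells, with at most 53 UMIs in 1 cell, and in 6 Enpp2-positive cells, 1 of which held 77. The Angptl7 level of 197 CPM in Enpp2-positive cells therefore rests on 6 cells.

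With the same genes left out of the ranking, the 15 with the most held 12.8% of the 2290380 UMIs of these cells. Of all genes, 16354 had at least 1 UMI. Saa3, an acute-phase serum amyloid (ENSMUSG00000040026, GRCm38 chromosome 7, 46711998 to 46715700, minus strand), came first with 59198 UMIs or 25846 CPM, followed by Slpi and by Crip1, a cysteine-rich LIM protein (ENSMUSG00000006360, GRCm38 chromosome 12, 113146316 to 113153879, plus strand), at 15256 CPM. The complement component C3 stood at 11053 CPM, ferritin heavy chain Fth1 at 10356, the actin-binding Tmsb4x at 7099 and Dcn at 6259. Sparc, a collagen-binding matrix protein, stood at 4208 CPM and Igfbp7 at 4158. The others were B2m, H2-D1 and H2-K1 of MHC class I, Ubb, Actb and the metallothionein Mt1. The MHC class I genes have near-identical relatives and Saa3 has related genes, and the sources used here do not say how shared reads were counted. In all other cells Saa3 stood at 79.1 CPM, C3 at 119.7, Dcn at 41.9 and Sparc at 32.1.

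Against all other cells, 822 of 4148 genes with at least 30 UMIs and 50 CPM on either side, or 19.8%, were at least 2-fold higher in the mesothelial cells on the log2(CPM + 20) scale, and 710, or 17.1%, at least 2-fold lower. The 10 highest, leaving out genes abundant in hepatocytes, were Saa3, Dcn, Igfbp5, Sparc, C3, Igfbp6, Krt19, Igfbp7, Timp1 and Slpi, with log2 ratios of 8.03 for Saa3 and 6.66 for Dcn. Of the 23 basement membrane genes listed, 13 passed the count filter, and all 13 were at least 2-fold higher. The laminin chain Lama5 stood at 135 CPM in the mesothelial cells and 1.35 CPM in all other cells, and the type IV collagen chain Col4a5 at 145 and 0.657. Of 14 junction genes passing the filter, 12 were at least 2-fold higher. Cdh3, P-cadherin, stood at 149 CPM in the mesothelial cells and 0.370 CPM in all other cells, and Cdh11 at 399 and 1.52. The epithelial cadherin Cdh1 gave 1 UMI in the mesothelial cells. A gene passes the filter through the side where it is high, so these shares count only genes that were detectable. Most of these genes did not differ from the other groups with mesothelial markers. Against Enpp2-positive cells, 1 of 14 basement membrane genes was at least 2-fold higher and 1 lower, and 3 of 14 junction genes were higher. Of all genes there, 3.62% were higher and 3.51% lower. Against cycling cells, none of 13 and none of 15 was past 2-fold, beside 1.88% higher and 6.31% lower.

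In the TGF-beta list, 9 of 13 genes that passed were at least 2-fold higher than in all other cells. The ligand Tgfb1 was lower, at 16.6 CPM in the mesothelial cells and 139.9 CPM in all other cells. Of all genes, 19.8% were at least 2-fold higher and 17.1% at least 2-fold lower. Members near 0 in all other cells passed the filter only through the mesothelial side, so the list counts here cover only detectable genes. Tgfb2, a transforming growth factor beta ligand, stood at 114 CPM in the mesothelial cells and 0.164 in all other cells. Its storage protein Ltbp1 stood at 141 and 0.493 CPM, and the ligand Wnt5a at 205 and 0.657, where 6 of 7 Wnt and R-spondin genes were higher and none lower. In the BMP and Id list, 6 of 8 were higher, and Id2 and Hamp were lower. Ptgis, prostacyclin synthase, stood at 687 CPM in the mesothelial cells and 4.64 in all other cells, with UMIs in 92.5% of the mesothelial cells and none of the 257 background cells. The transcription factor Gata6 stood at 249 and 2.71 CPM, while Gata4 and Gata5 stood at 35.8 and 45.8 CPM in the mesothelial cells. Ptgis and Gata6 were within 2-fold of both Enpp2-positive and cycling cells. Against Enpp2-positive cells, 2 of 10 TGF-beta genes were at least 2-fold higher and none lower. For Wnt and R-spondin it was 2 higher and 2 lower of 9, and for BMP and Id 1 higher and 2 lower of 9. Of all genes there, 3.62% were higher and 3.51% lower.

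Clusterin and its receptor, the subject of the study's title, were measured in the same cells. Clu stood at 1695 CPM in the mesothelial cells, 1841 in Enpp2-positive cells, 1082 in cycling cells and 289.8 in all other cells. Lrp2, megalin, the endocytic receptor named in the title, had 222 UMIs in the mesothelial cells, or 96.9 CPM, against 105 CPM in Enpp2-positive, 71.0 in cycling and 0.164 in all other cells. An Lrp2 UMI was found in 42.2% of the mesothelial cells. At 2000 UMIs per cell it was found in 19.4% of them, in 18.9% of Enpp2-positive cells, in 15.7% of cycling cells and in none of the 257 background cells, which allows up to 1.17%. The mesothelial to Enpp2-positive ratio of Lrp2 was 0.927 with an interval of 0.715 to 1.21, which spans 1, so no difference was detectable at this depth. Dab2, an adaptor for megalin uptake, stood at 285 CPM in the mesothelial cells and 195 CPM in Enpp2-positive cells, 1.46-fold higher (1.22 to 1.76) in the mesothelial cells. Lrpap1, the receptor's chaperone, stood at 298 CPM in the mesothelial cells and 267 CPM in Enpp2-positive cells, and Lrp1, a related receptor, at 516 CPM in the mesothelial cells and 709 CPM in Enpp2-positive cells. Cubn, which partners megalin in kidney, gave 1 UMI and its anchor Amn gave none.

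Enpp2-positive cells are the nearest neighbours by gate, with a marker sum of at least 5, fewer than 5 cycling UMIs and at least 2 UMIs of Enpp2, Cxcl13 and Col6a5. Since these 3 genes and what goes with them divide the groups, the ratios describe that division. Of 3679 genes outside the gate, 133 (3.62%) were at least 2-fold higher in the mesothelial cells and 129 (3.51%) at least 2-fold lower, with a median log2 ratio of -0.05. Myl7 had the highest ratio of the genes ranked. It stood at 684 CPM in the mesothelial cells and 36.6 CPM in Enpp2-positive cells, 18.7-fold higher (12.9 to 28.2). Fmo2, a flavin monooxygenase, stood at 692 CPM in the mesothelial cells and 78.4 CPM in Enpp2-positive cells, 8.83-fold higher (6.82 to 11.6). Ltbp1, which stores TGF-beta in the matrix, stood at 141 CPM in the mesothelial cells and 7.84 CPM in Enpp2-positive cells, 17.9-fold higher (8.14 to 49.2). Bst1, an NAD-hydrolysing surface enzyme, stood at 229 CPM in the mesothelial cells and 19.6 CPM in Enpp2-positive cells, and Cygb, cytoglobin, 12.6-fold higher (6.97 to 25.4). Slc39a8, an importer of zinc and manganese, was 5.80-fold higher (4.71 to 7.22), and Alcam, an adhesion molecule, 4.98-fold higher (4.17 to 5.99). AU021092, Ppfibp2 and Prr15l completed the 10 highest, with log2 ratios of 2.77, 2.45 and 2.41.

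The 10 lowest were led by Ly6a, the surface antigen Sca-1, at 20.1 CPM in the mesothelial cells and 225 CPM in Enpp2-positive cells, 11.2-fold lower (8.05 to 15.9). Igfbp3 stood at 59.8 CPM in the mesothelial cells and 447 CPM in Enpp2-positive cells, 7.48-fold lower (6.11 to 9.18). Lgals1 stood at 1639.9 CPM in the mesothelial cells and 7336 CPM in Enpp2-positive cells, 4.47-fold lower (4.29 to 4.66). Matrix genes made up much of the rest. Emilin2 and Mfap2, of elastic microfibrils, stood at 14.0 and 10.9 CPM in the mesothelial cells and at 174 and 133 in Enpp2-positive cells. Fndc1, a fibronectin-domain protein, stood at 172 CPM in the mesothelial cells and 839 CPM in Enpp2-positive cells, and Spon2, a secreted matrix protein, had 48 UMIs in the mesothelial cells and 138 in Enpp2-positive cells. Itih5, an inter-alpha-trypsin inhibitor heavy chain, gave 3 UMIs in the mesothelial cells and Rarres1 gave 5, so their ratios rest on few counts. Ifi205, an interferon-inducible gene, stood at 34.9 CPM in the mesothelial cells and 307 CPM in Enpp2-positive cells. Ly6a and Ifi205 belong to families of similar genes between which reads may be split.

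The mesothelial identity genes were in part higher and in part within 2-fold of Enpp2-positive cells. Of 30 mesothelial identity genes outside the gate, 23 passed the filter, 10 of them at least 2-fold higher, 1 lower and 12 between. Their median log2 ratio was 0.72, beside -0.05 for all genes, of which 3.62% were higher and 3.51% lower. The 10 include Slpi, Myl7 and Angptl7, which the label itself names. Slpi stood at 22949 CPM in the mesothelial cells and 5179 CPM in Enpp2-positive cells, 4.43-fold higher (4.29 to 4.58). The membrane linker Ezr stood at 1040.4 CPM in the mesothelial cells and 435 CPM in Enpp2-positive cells, and Efemp1, a matrix fibulin, at 1183 CPM in the mesothelial cells and 533 CPM in Enpp2-positive cells. Podxl, podocalyxin, was the 1 lower member, at 13.1 CPM in the mesothelial cells and 71.9 CPM in Enpp2-positive cells. Of 8 intermediate filament genes passing, Krt7, Krt14 and Krt18, which are on the identity list too, were at least 2-fold higher and Des, desmin, at least 2-fold lower, with 4 between. Krt7 stood at 482 CPM in the mesothelial cells and 109 CPM in Enpp2-positive cells, 4.44-fold higher (3.55 to 5.62), and Krt18 at 602 CPM in the mesothelial cells and 159.5 CPM in Enpp2-positive cells. Krt19 stood at 1625 CPM in the mesothelial cells and 1288 CPM in Enpp2-positive cells and vimentin, Vim, at 2921 CPM in the mesothelial cells and 2949.7 CPM in Enpp2-positive cells, both within 2-fold. All 3 of Krt8, Krt18 and Krt19 were found together in 69.0% (63.4 to 74.3) of the mesothelial cells and 29.5% (21.6 to 38.4) of Enpp2-positive cells, or in 28.2% of the mesothelial cells and 9.84% of Enpp2-positive cells at 2000 UMIs, and in none of the 257 background cells.

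Of 10 fibrillar collagen genes, 6 passed, 5 were at least 2-fold lower and none higher, with a median of -1.62. Of all genes in this comparison, 3.62% were at least 2-fold higher and 3.51% at least 2-fold lower. Col1a1 stood at 932 CPM in the mesothelial cells and 3063 CPM in Enpp2-positive cells, 3.29-fold lower (3.10 to 3.49). Col1a2 stood at 1255 CPM in the mesothelial cells and 3805 CPM in Enpp2-positive cells, and Col3a1, the type III chain, at 1612 CPM in the mesothelial cells and 5132 CPM in Enpp2-positive cells, 3.18-fold lower (3.04 to 3.33). The mesothelial cells still carried these genes above the background. Col1a1, Col1a2 and Col3a1 were counted together in 67.0% (61.3 to 72.4) of them, in 96.7% (91.8 to 99.1) of Enpp2-positive cells and in 0 of 257 background cells, which allows up to 1.17%. At 2000 UMIs per cell the shares were 36.7% of the mesothelial cells and 89.3% of Enpp2-positive cells. The 10 fibroblast markers summed to 1820.2 CPM in the mesothelial cells and 2283 CPM in Enpp2-positive cells, and the 9 stellate markers to 6884 and 10333, and their part in the collagen ratios was not tested. Among matrix glycoproteins and processing enzymes, 2 of 26 were at least 2-fold higher, Bgn and Ogn, and 5 lower, Fn1, Lum, Vcan, Bmp1 and Col6a3. Ogn came to a log2 ratio of 0.92 with cells weighted equally, and Lum to -0.88 after thinning. Biglycan, Bgn, stood at 1507 CPM in the mesothelial cells and 609 CPM in Enpp2-positive cells, and fibronectin, Fn1, at 398 CPM in the mesothelial cells and 913 CPM in Enpp2-positive cells. Timp1, an inhibitor of metalloproteinases, was the other way from the 3 proteases Mmp19, Mmp23 and Adamts1 of its list. It stood at 1681 CPM in the mesothelial cells and 668 CPM in Enpp2-positive cells, 2.52-fold higher (2.29 to 2.76), and Adamts1 at 110.0 CPM in the mesothelial cells and 322 CPM in Enpp2-positive cells, 2.92-fold lower (2.44 to 3.50).

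**Figure D3:**
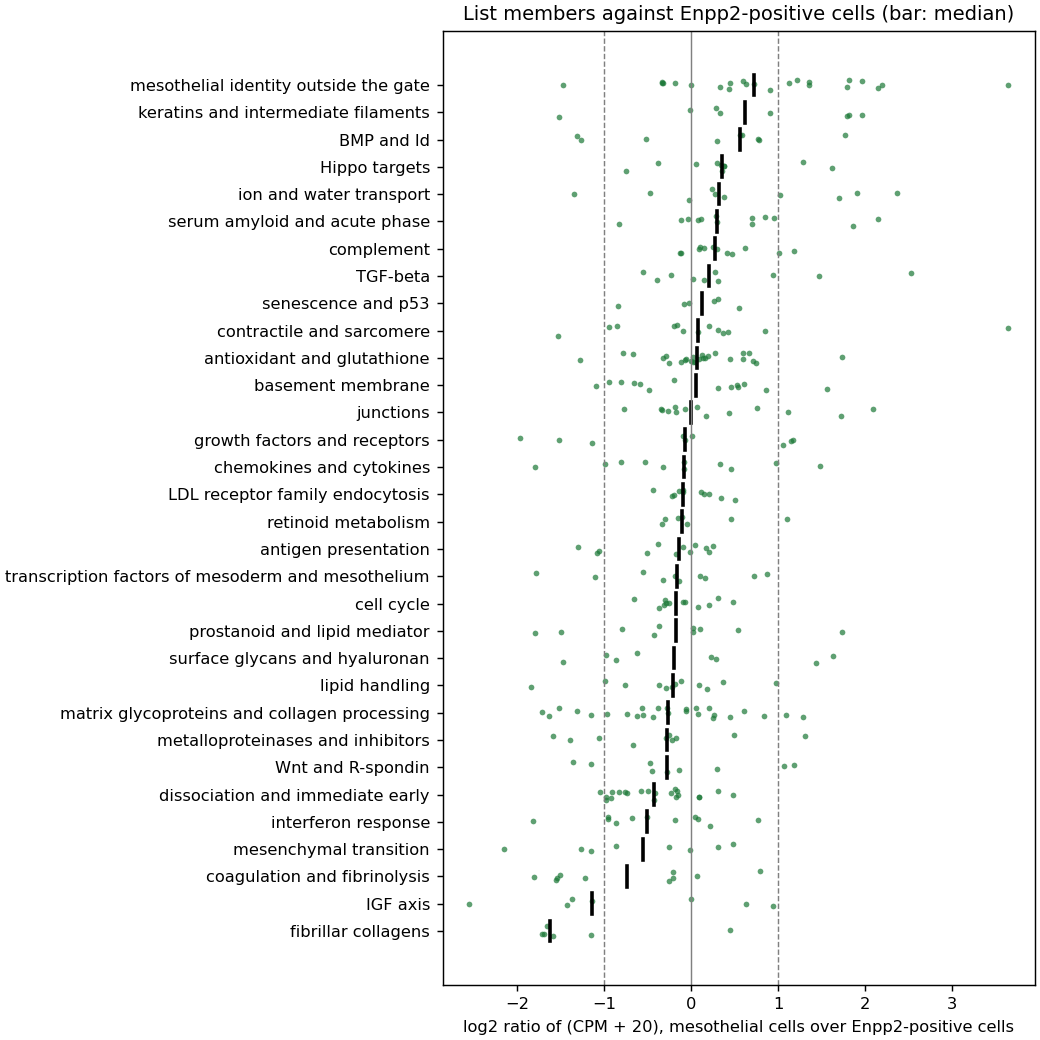
Each point is a list member that passed the count filter, placed by its log2 ratio of (CPM + 20) in the mesothelial cells over Enpp2-positive cells, with a bar at each list's median and dashed lines at 2-fold. Mesothelial identity outside the gate has its median at 0.72 and fibrillar collagens at -1.62.

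Other secreted and signalling groups split in the same comparison, in which 3.62% of all genes were at least 2-fold higher and 3.51% at least 2-fold lower. In the insulin-like growth factor (IGF) axis, 7 of 13 genes passed and 4 were at least 2-fold lower, namely Igf1, Igf2r, Igfbp3 and Igfbp4. Igfbp5 stood at 2604 CPM in the mesothelial cells and 1674 CPM in Enpp2-positive cells, Igfbp6 at 2647 CPM in the mesothelial cells and 2661 CPM in Enpp2-positive cells and Igfbp7 at 4158 CPM in the mesothelial cells and 2160.0 CPM in Enpp2-positive cells, within 2-fold. In coagulation and fibrinolysis, 5 of 10 were lower. Thbd, the thrombin receptor thrombomodulin, stood at 82.5 CPM in the mesothelial cells and 278 CPM in Enpp2-positive cells, and Plat, tissue plasminogen activator, at 83.4 CPM in the mesothelial cells and 221 CPM in Enpp2-positive cells. Serpinb2 was counted in 7 mesothelial and 11 Enpp2-positive cells, so its ratio rests on few cells. In ion and water transport, 4 of 10 were at least 2-fold higher and Fxyd5 was lower, and the scaffold Slc9a3r1 came to 0.96 on the log2 scale with a marker sum of at least 10. The water channel Aqp1 stood at 407 CPM in the mesothelial cells and 94.1 CPM in Enpp2-positive cells, 4.32-fold higher (3.40 to 5.57). Of 12 complement genes, 2 were at least 2-fold higher and none lower, and C4b came to a log2 ratio of 0.92, under 2-fold, after thinning to 2000 UMIs. Lbp, which binds bacterial lipopolysaccharide, stood at 162 CPM in the mesothelial cells and 30.1 CPM in Enpp2-positive cells, 5.37-fold higher (3.53 to 8.58).

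Among growth factors, Fgf2, the receptor Kdr and the hepatocyte growth factor receptor Met were at least 2-fold higher, and Fgf1, Mdk and Pdgfra at least 2-fold lower. Met stood at 165 CPM in the mesothelial cells and 69.3 CPM in Enpp2-positive cells, and Fgf1 at 33.2 CPM in the mesothelial cells and 188 CPM in Enpp2-positive cells. Tgfb2 stood at 114 CPM in the mesothelial cells and 28.8 CPM in Enpp2-positive cells, 3.98-fold higher (2.57 to 6.46). Id1, a target of bone morphogenetic protein signals, stood at 575 CPM in the mesothelial cells and 154 CPM in Enpp2-positive cells, 3.73-fold higher (3.09 to 4.54). Crim1 and Cyr61, on the list of Hippo pathway targets, stood at 230.1 and 422 CPM in the mesothelial cells and 61.5 and 162 CPM in Enpp2-positive cells, and Cyr61 came under 2-fold, at 0.82 on the log2 scale, with cells weighted equally. The transcription factors Osr1 and Klf4 were lower, with Osr1 at 104 CPM in the mesothelial cells and 409 CPM in Enpp2-positive cells, 3.92-fold lower (3.30 to 4.66). Immediate early genes, which can be set off by tissue dissociation, had a median of -0.43 over 21 members, with Jun at 441 CPM in the mesothelial cells and 935 CPM in Enpp2-positive cells, a log2 ratio of -1.05 that was -0.98 without the 9 cells that carry markers of other types. Their part in the other ratios was not tested. Of 12 antigen presentation genes, the MHC class II genes H2-Aa, H2-Ab1 and H2-Eb1 were lower, with H2-Ab1 at 49.8 CPM in the mesothelial cells and 152 CPM in Enpp2-positive cells and a log2 ratio of -0.88 after thinning. H2-Ab1 stood at 484 CPM in all other cells. The 11 passing genes of LDL receptor family endocytosis held none past 2-fold. Of all genes, 3.62% were at least 2-fold higher and 3.51% at least 2-fold lower, so a short list with none is near that share. None of 12 cell cycle genes and none of 6 senescence and p53 genes was past 2-fold either, which is near the same share. Both groups were held to fewer than 5 cycling UMIs by the gate, so nothing is read from the cell cycle count.

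The 108 cycling cells were not split by Enpp2. Against them, fewer genes were higher than lower. Of 3880 genes, 73 (1.88%) were at least 2-fold higher in the mesothelial cells and 245 (6.31%) at least 2-fold lower, with a median log2 ratio of -0.07. The gate on cycling genes set their direction, and 18 of 23 other cell cycle genes were lower, with Prc1, a spindle protein, at 10.9 CPM in the mesothelial cells and 609 CPM in cycling cells, and Ube2c, Pclaf, Ckap2l and Ccnb1 next. The cyclin Ccnd2 was the 1 higher member, at 97.8 CPM in the mesothelial cells and 34.7 CPM in cycling cells. The 5 highest were Ogn, Prg4, C4b, Sugct and Fgl2. Ogn, osteoglycin, stood at 239.7 CPM in the mesothelial cells and 27.8 CPM in cycling cells, 8.63-fold higher (6.16 to 12.5). Prg4, lubricin, stood at 669 CPM in the mesothelial cells and 175 CPM in cycling cells, 3.82-fold higher (3.32 to 4.41), and Fgl2, a fibrinogen-like protein, was 4.45-fold higher (3.27 to 6.19). Sugct, a mitochondrial coenzyme A transferase, was 5.33-fold higher (3.72 to 7.89). Of 24 matrix glycoprotein and processing genes, Ogn was the 1 at least 2-fold higher and Fn1 and Vcan were lower. Of 12 complement genes, 5 were at least 2-fold higher and none lower, with a median of 0.88 beside -0.07 for all genes. C3 stood at 11053 CPM in the mesothelial cells and 4869 CPM in cycling cells, 2.27-fold higher (2.21 to 2.33), and C4b at 638 CPM in the mesothelial cells and 169 CPM in cycling cells, 3.78-fold higher (3.27 to 4.37). The metallothioneins Mt1 and Mt2 stood at 3103 and 888 CPM in the mesothelial cells and 1212 and 269 in cycling cells. Keratins differed less, with Krt19 at 1625 CPM in the mesothelial cells and 1499 CPM in cycling cells and Krt7 at 482 CPM in the mesothelial cells and 429.7 CPM in cycling cells. Igfbp3 and Spon2 were at least 2-fold lower, but ran higher once both sides were held to an Enpp2 sum of 0, with log2 ratios of 0.30 and 0.32.

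Within the mesothelial cells, Saa3 and Slpi varied most from cell to cell of the genes ranked. The measure was the ratio of variance to mean, which is not corrected for a gene's level. At 2000 UMIs per cell Saa3 had a mean of 51.6 UMIs and a standard deviation of 59.8, and Ccl2 had 1.09 and 3.78. Each cell was thinned to 2000 UMIs and genes were ranked by the ratio of variance to mean among 1544 genes with a mean of at least 0.2. Gate, ribosomal, mitochondrial, immunoglobulin, haemoglobin, Gm- and Rik-named genes were left out, as were the 50 genes with the most UMIs in cells marked as hepatocytes. Apoe, left out this way, had a ratio of 27.4, and of 8.54 without the 9 cells that carry markers of other types. Saa3 came first at 69.3, with 0 to 290 UMIs per cell and a median of 29. Slpi followed at 35.3, with a median of 34 and a maximum of 179. Crip1 reached 15.5 and C3 9.71, and both were found in 99.7% of the mesothelial cells, against 33.5% of the background cells for Crip1 and 37.7% for C3. A Saa3 UMI was found in 84.4% of the mesothelial cells at this depth and 90.5% at full depth, against 9.34% and 20.2% of the background cells. Chemokines were counted in fewer cells. Ccl2, which attracts monocytes, was found in 84 of 294 cells at full depth, and the 30 cells with the most held 87.1% of its 1468 UMIs. For Cxcl1, which attracts neutrophils, it was 66 cells and 89.5%. Cxcl5, of the same kind, was found in 23 cells, 1 of which held 107 of its 206 UMIs. By the same measure 30 cells held 27.7% of C3 and 41.7% of Saa3 UMIs. Col3a1 and Igfbp5 were also among the 15. S100a8, S100a9, Gpnmb, Wfdc17 and Ctss, known from neutrophils and macrophages, ranked among the 15 with all 294 cells and left it without the 9 cells that carry markers of other types, where Lyz2 had a ratio of 6.71, against 15.2 with them.

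**Figure D4:**
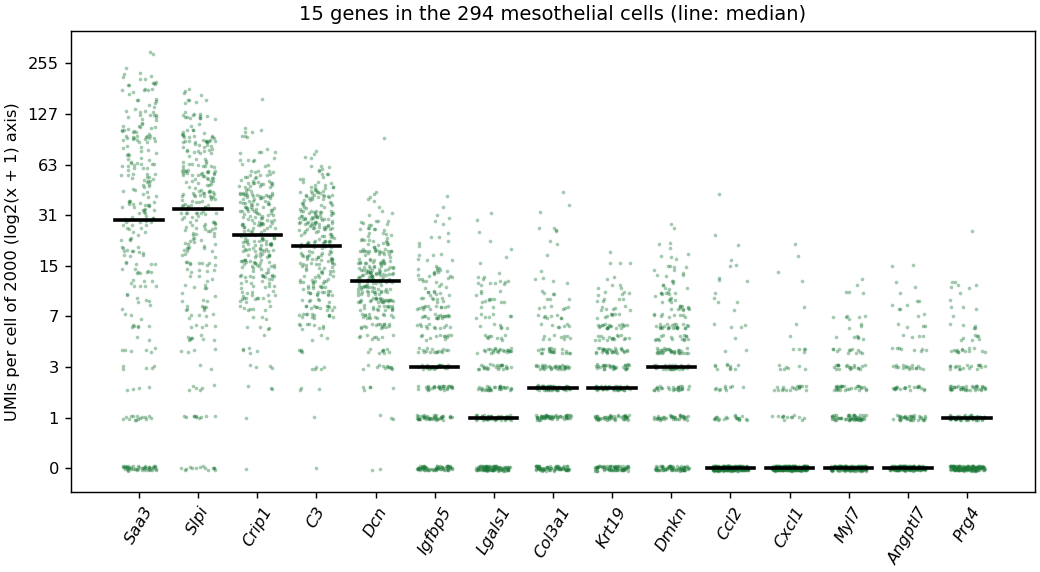
UMIs per cell after thinning to 2000 (log2(x + 1) axis, small jitter) for 15 genes, with 1 point for each of the 294 mesothelial cells and a line at the median. Saa3 spreads over 0 to 290, while Ccl2 and Cxcl1 have a median of 0 and few high cells.

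Some of these genes varied together. Over 32 variable genes, leaving out markers of other cell types, 496 pairs were compared by Spearman's rho over the 294 cells at 2000 UMIs. The median absolute rho was 0.0997, 16 pairs reached 0.4 and 1 pair reached -0.4. The points are cells of 1 matrix from up to 6 samples that cannot be told apart, and each cell's UMIs sum to the same total, so rho is a description. Crip1 went with Krt19 at 0.58, with Dmkn, dermokine, at 0.51 and with Myl7 at 0.40. The chemokines formed another set, with Ccl2 and Ccl7 at 0.52, Cxcl1 and Ccl7 at 0.43 and Ccl2 and Cxcl1 at 0.42. Matrix genes formed a set of their own, with Col1a1 and Col1a2 at 0.51, Col1a2 and Sparc at 0.47 and Col1a2 and Fn1 at 0.45, and Lgals1 joined it through Col1a2 at 0.43. C3 went with Igfbp7 at 0.43 and against Lgals1 at -0.47. Col1a2 and Myl7 stood at -0.36. Saa3 and Slpi, the 2 ranked genes with the most UMIs, stood at 0.02 with each other. At 4000 UMIs in the 250 cells that reach this depth, Crip1 and Krt19 stood at 0.65, Ccl2 and Ccl7 at 0.58 and C3 and Lgals1 at -0.53.

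**Figure D5:**
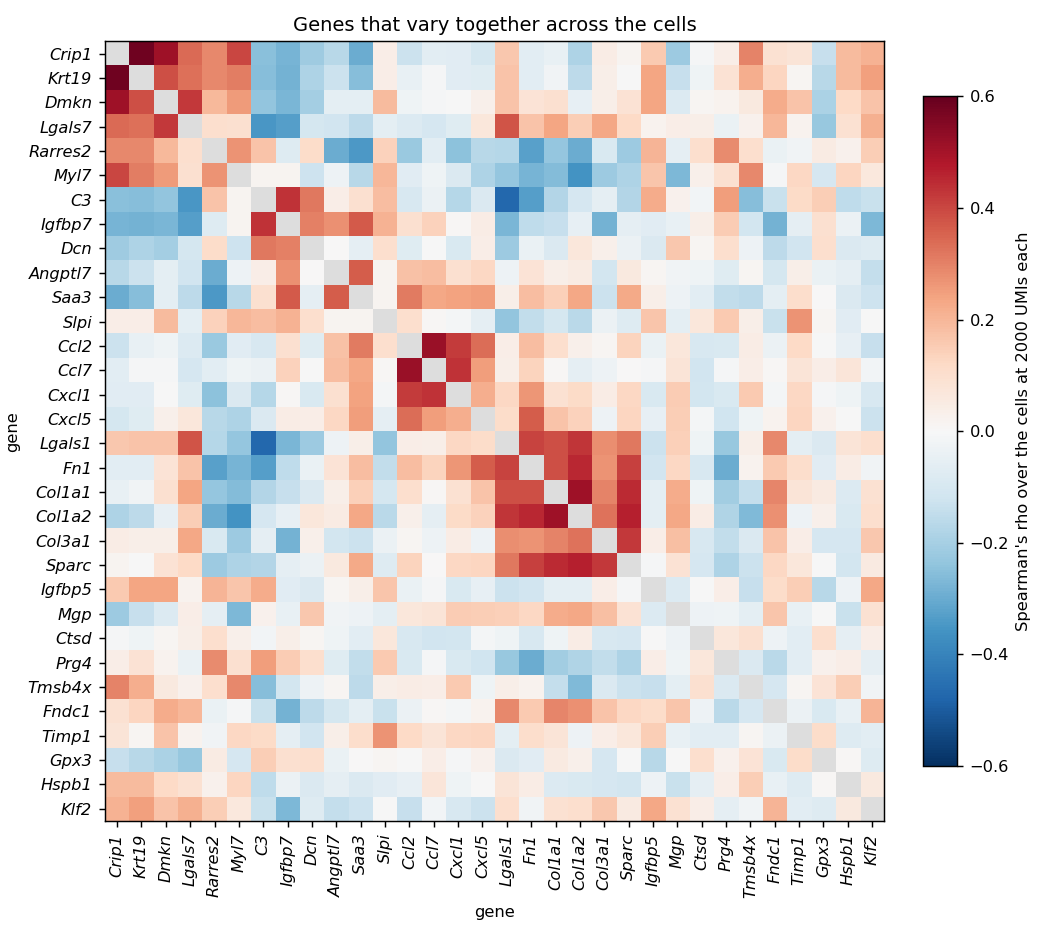
Spearman's rho over the 294 mesothelial cells at 2000 UMIs each for 32 genes (both axes), from blue (negative) to red (positive), with the diagonal in grey. Blocks of red hold Crip1 with Krt19 and Dmkn, Ccl2 with Ccl7 and Cxcl1, and Col1a1, Col1a2, Fn1 and Sparc.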

How the data were processed

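Single-cell RNA was read from mouse liver with the GEXSCOPE microwell kit, per the labels' protocols. The deposited matrix holds whole-number UMI counts per gene and cell that were not normalized. Per the submitters' processing notes, the genome was GRCm38. Aligner, counter and cell calling: not given in the sources used here. The total was 28912707 UMIs in 4694 cells, of which the 4617 with at least 200 genes were kept, and the smallest of the 294 mesothelial cells held 2371 UMIs. Rows were named by the gene table's second column, and 118 of its symbols stand on more than 1 identifier.

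UMIs were summed over the cells of a group and scaled to CPM. Groups were set side by side by log2 of (CPM + 20) ratios, for genes with at least 30 summed UMIs and 50 CPM on either side. A fold of 2 was used in place of a test, since the 6 samples of the matrix cannot be told apart. Intervals are 95%, exact binomial for shares, Poisson for levels and conditional binomial for folds, and cover counting error only. A share of 0 was given the limit that 3 counts allow. Variability and Spearman's rho came from cells thinned at random to 2000 UMIs. Statistics were tested on simulated data.

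Genes named were the 6 label markers, the gate genes, Clu, Lrp2, Dab2 and Lrpap1, the 10 highest and 10 lowest against Enpp2-positive cells, the 5 and 5 against cycling cells, the 10 highest against all other cells, the 15 with the most UMIs, the 15 most variable, and up to 4 per gene list. Rankings left out mitochondrial, ribosomal, immunoglobulin, haemoglobin, Gm-, AC-, AL- and Rik-named genes, Malat1, Neat1, Xist, Tsix, Y-linked genes and gate genes. Rankings of ratios and of variability also left out the 50 genes with the most UMIs in cells marked as hepatocytes. Further list members past 2-fold were named after their values were seen. The members and the 32 gene lists (707 of 708 genes found) were chosen with earlier results of these data known. The cell type shares, the genes correlated, the promoters and motifs, the genes drawn and the setting without cells that carry markers of another type were chosen after seeing the data. Scrublet (scanpy) marked 5 of 4617 cells, or 0.108%, too few to have worked, so no doublet was removed, and the highest 5% of scores were left out as an alternative. Other alternatives changed the offset, filter, depth, weighting and gates. The wild-type matrices were not used here, and a few list members are not reported here. Tools were python 3.11.15, numpy 2.4.6, scipy 1.17.1, pandas 2.3.3, scanpy 1.11.5 and matplotlib 3.10.9.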

Additional observations from a re-analysis of the deposited data

How the results depend on the processing

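The recomputed counts of genes past 2-fold came within 1.5 times of the main count, apart from 2. Against cycling cells, 128 genes with an offset of 5 CPM and 139 with cells thinned to 2000 UMIs were at least 2-fold higher in the mesothelial cells, beside 73 in the main setting. Igfbp3 and Spon2, lower against cycling cells in the main setting, had log2 ratios of 0.30 and 0.32 when both sides were held to an Enpp2 sum of 0. The median log2 ratio of the prostanoid and lipid mediator list against all other cells was -0.0008 with a count minimum of 10 and no CPM floor, beside 1.17 in the main setting. The cause was not tested in these cases. Of named ratios past 2-fold, 11 of 77 against Enpp2-positive cells, 15 of 34 against cycling cells and 7 of 117 against all other cells came under 2-fold in some setting. Lgals1 against cycling cells came to -0.53 with an Enpp2 sum of 0, beside -1.17, and Cxcl12 against Enpp2-positive cells to -0.86 with a marker sum of at least 10, beside -1.79. The median of 11 lists against Enpp2-positive cells, 7 against cycling cells and 2 against all other cells changed sign in some setting, and no direction is read from these. Of the 15 most variable genes, 10 to 14 were shared under the other settings tried. No paired analysis was possible because the cells of 6 samples share 1 matrix whose columns carry no replicate number. Without replicates, the spread between animals could not be measured, and at this depth genes under 30 summed UMIs on both sides were not compared.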

Other observations

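The mesothelial cells also carried genes of retinoid metabolism. Aldh1a2, which makes retinoic acid in developing mesoderm, stood at 141 CPM in the mesothelial cells and 0.780 CPM in all other cells, and Aldh1a1 of the same family at 499.9 CPM in the mesothelial cells and 71.2 CPM in all other cells. Rbp4, the retinol carrier of plasma made by hepatocytes, was lower, at 73.8 CPM in the mesothelial cells and 639 CPM in all other cells. Rarres2, which encodes chemerin, stood at 1484 CPM in the mesothelial cells and 684 CPM in Enpp2-positive cells. Of 7 such genes that passed the filter, 5 were at least 2-fold higher than in all other cells and 2 lower, beside 19.8% and 17.1% of all genes. Against Enpp2-positive cells, only Rarres2 of 7 was at least 2-fold higher and none lower, beside 3.62% and 3.51% of all genes. Its log2 ratio there was 0.94 with cells weighted equally. Against cycling cells, again only Rarres2 of 7 was higher and none lower, beside 1.88% and 6.31%.

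Among cytokines, Il33, an alarmin of barrier cells, stood at 131 CPM in the mesothelial cells and 2.09 CPM in all other cells, and Csf1, a macrophage growth factor, at 91.3 CPM in the mesothelial cells and 4.11 CPM in all other cells. Has1, a hyaluronan synthase, stood at 147 CPM in the mesothelial cells and 0.493 CPM in all other cells. Il33, Csf1 and Has1 were within 2-fold of both Enpp2-positive and cycling cells. In the antioxidant list, 8 of 28 genes were at least 2-fold higher than in all other cells and 10 lower, beside 19.8% and 17.1% of all genes. The extracellular superoxide dismutase Sod3 stood at 104 CPM in the mesothelial cells and 1.72 CPM in all other cells. Against Enpp2-positive cells, 1 of 26 that passed, Sod3, was at least 2-fold lower and 1, Gpx3, at least 2-fold higher. Both counts are near the share over all genes, 3.51% lower and 3.62% higher. Hmox1, haem oxygenase, stood at 50.6 CPM in the mesothelial cells and 799.7 CPM in all other cells.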
